A study of Mus musculus with 36 samples.

Results

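The 9 transcription factors of cardiac chamber identity described here were followed across the left ventricle and the atria of CUG960 mice, a heart model of myotonic dystrophy type 1. They were picked by symbol, from a list drawn up with earlier results of these data known: Irx4, Hey2, Tbx5, Tbx20, Nr2f1, Nr2f2, Nkx2-5, Gata4 and Hand2. These 9 of the 55291 gene symbols in the tables were all present, and all 9 passed the filter on low counts that left 19231 genes for testing. RNA was sequenced in 36 libraries, 3 from each of 6 cohorts in each of 2 tissues, and mice were 21 weeks old. The study's sample list gives both tissues from the same 18 mice.

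All mice were homozygous for TREDT960I, a dox-responsive transgene for CUG repeat RNA, and hemizygous for MHCrtTA, which puts the dox-dependent activator under the α-MHC promoter of cardiomyocytes. The +dox cohort received doxycycline (dox) chow from postnatal day 1 to the end. The -dox cohort never received dox. The +/-dox cohort received dox from day 1 and returned to normal chow at 9 weeks. In 3 further cohorts (MBNL1, MBNL2 and, for both, MBNL1+MBNL2) dox went on as in +dox mice, and AAV9 was given by tail vein at 9 weeks with 3XFLAG-MBNL1, 3XMYC-MBNL2 or both, driven by the heart-specific TNNT2 promoter. Tissue was taken 12 weeks later. RNA came from whole tissue, so a change in RNA per cell and a change in the number of cells of a type cannot be told apart. All 36 libraries carried the transgenes, and a wild-type heart was not analysed here.

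As background, the heart tube gives rise to ventricles and atria under a network of transcription factors, many of which stay expressed in adult myocytes. Irx4 (an Iroquois homeobox factor) and Hey2 (a Hairy-related repressor downstream of Notch) act in ventricular myocytes and restrain atrial genes there. Nr2f1 and Nr2f2 (the COUP-TFI and COUP-TFII orphan nuclear receptors) act in atrial myocytes, and Nr2f2 also acts in venous and lymphatic endothelium. Tbx5 and Tbx20 are T-box factors, and Nkx2-5 (a homeobox factor), Gata4 (a zinc finger factor) and Hand2 (a basic helix-loop-helix factor) form the core cardiac program of both chambers.

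The start-site regions are shown for 3 members that were separated completely between chambers, Irx4 on the ventricular side and Tbx20 and Nr2f2 on the atrial side. Each is the 250 bases before the RefSeq start site on GRCm38.p6, written in the direction of transcription, with CpG dinucleotides in capitals. The Irx4 window lies at chr13:73260247-73260496 on the plus strand, the Tbx20 window at chr9:24774304-24774553 on the minus strand and the Nr2f2 window at chr7:70366747-70366996 on the minus strand.
Irx4: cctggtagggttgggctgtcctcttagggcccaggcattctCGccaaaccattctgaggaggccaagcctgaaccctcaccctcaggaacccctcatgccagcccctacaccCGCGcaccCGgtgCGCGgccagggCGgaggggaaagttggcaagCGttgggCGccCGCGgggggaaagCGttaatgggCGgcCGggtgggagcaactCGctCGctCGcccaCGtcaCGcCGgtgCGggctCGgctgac
Tbx20: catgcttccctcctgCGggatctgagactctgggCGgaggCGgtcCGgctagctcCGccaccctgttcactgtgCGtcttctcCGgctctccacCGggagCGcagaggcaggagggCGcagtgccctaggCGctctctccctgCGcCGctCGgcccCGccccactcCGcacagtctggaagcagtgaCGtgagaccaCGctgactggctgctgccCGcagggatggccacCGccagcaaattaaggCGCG
Nr2f2: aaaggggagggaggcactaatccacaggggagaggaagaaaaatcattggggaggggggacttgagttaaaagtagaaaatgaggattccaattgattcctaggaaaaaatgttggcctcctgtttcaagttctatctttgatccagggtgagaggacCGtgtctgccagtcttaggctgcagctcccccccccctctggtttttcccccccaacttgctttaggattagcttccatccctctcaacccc
The windows of Irx4 and Tbx20 each held 22 CpG dinucleotides and that of Nr2f2 held 1. The median over 32851 start-site regions was 6, with quartiles of 2 and 16. Windows were found for 7 members, and those of Hey2 and Nr2f1 also held 22, that of Hand2 held 15 and that of Nkx2-5 held 8, and high counts were found on both the ventricular and the atrial side. In the same regions with 50 further bases (300 in all), 6 motifs were searched on both strands, and only Nr2f2 and Hand2 held any. The GATA motif (any of the 4 forms AGATAA, the variant AGATAG, the variant TGATAA and the variant TGATAG), present in 29.8% of all regions, was found once in Nr2f2, beginning 118 bases before the start site, and 2 times in Hand2. Hand2 also held 1 match of the NKX2-5 motif (AAGTG, in 46.4% of regions) and 1 of the HAND motif (CATCTG, in 17.2%). The T-box motif AGGTGTGA (in 1.28% of regions), the HEY motif (CACGTG or CACGCG, in 15.4%) and the NR2F motif AGGTCA (in 16.3%) were not found in any of the 7.

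By the GENCODE M21 annotation of GRCm38, Irx4 (ENSMUSG00000021604.15) spans 73260479 to 73269608 of chromosome 13, and Nr2f1 (ENSMUSG00000069171.14) spans 78188973 to 78199757 of the same chromosome. Tbx20 (ENSMUSG00000031965.15) lies at 24718138 to 24774303 of chromosome 9 and Nr2f2 (ENSMUSG00000030551.14) at 70351944 to 70366735 of chromosome 7. Each of 3 members overlaps a noncoding gene on the other strand. These are A830082K12Rik at Nr2f1, B130024G19Rik at Nr2f2 and Hand2os1 at Hand2. Hand2os1 averaged 81.6 TPM in ventricles and 91.8 TPM in atria, above Hand2 itself, and the strand setting of the counting is not given in the sources used here.

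Libraries held 55031987 to 97091184 estimated counts. One library, ventricle MBNL1 replicate 1, listed 16885 genes above 0, against 20578 to 24041 in the other 35. Ventricular myosin light and contractile genes summed to 21511 to 29788 TPM in ventricles and 1157 to 2059 TPM in atria, and the atrial list to 182 to 1119 TPM in ventricles and 42232 to 63712 TPM in atria, so all 36 libraries matched their tissue. Mbnl1 was listed at 56.4 to 68.1 TPM in MBNL1 ventricles and 44.9 to 54.7 TPM in +dox ventricles, and Mbnl2 at 127 to 174 TPM in MBNL2 ventricles and 93.4 to 108 TPM in +dox ventricles, although the vectors carry human cDNAs that these mouse rows need not count in full.

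The first question was how each factor was divided between the chambers. TPM, a level scaled for transcript length and for the library's total, is used for levels and comparisons between genes, and fold changes come from edgeR's quasi-likelihood test on the counts. A gene was called at an adjusted p below 0.05 and a change of at least 1.5-fold. Whether libraries overlapped is given for the members only, here and below, and was not counted over all genes. In the mean over the 6 cohorts, 6 of the 9 factors were called, 2 higher in the ventricle (Irx4 and Hey2) and 4 higher in the atria (Tbx5, Tbx20, Nr2f1 and Nr2f2). Over all genes tested, 31.7% were called, 14.5% higher in the ventricle and 17.3% lower.

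Irx4 was the most ventricular member. Its level was 10.6 at the lowest, 14.2 at the median and 17.3 TPM at the highest in the 18 ventricular libraries. In the 18 atrial libraries it was 0.01, 0.055 and 0.43 TPM. The chambers did not overlap, and the log2 difference was 7.87 ± 0.21 (SE, edgeR quasi-likelihood test, adjusted p = 1.0e-21), with estimates of 6.56 to 8.94 in single cohorts. In atria these levels rested on 1 to 49 counts a library.

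The atrial Irx4 signal moved with ventricular myosin. Myl2, the ventricular regulatory light chain, ranged from 28.7 to 581 TPM over the atrial libraries. The library with the most Irx4, atria MBNL1 replicate 1, had 0.43 TPM of Irx4 and 436 TPM of Myl2, which were 3.03% and 2.53% of their ventricular means. Atria -dox replicates 1 and 2 had 0.01 TPM of Irx4, at 31.4 and 28.7 TPM of Myl2, and -dox replicate 3 had 0.22 TPM at 581 TPM. Across the 18 atrial libraries the Pearson correlation of Irx4 with Myl2 TPM was 0.85 (permutation p = 0.00024, adjusted p = 0.0012 over 5 such relations) and Spearman's rho was 0.84 (permutation p = 8.0e-05, adjusted p = 0.0004). Without the 2 libraries farthest from the median of Myl2 the correlation was 0.89, and it was 0.96 within the 10 libraries of the first set of library names and 0.92 within the 8 of the second. The part of this in the atrial Irx4 level was not tested.

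**Figure D1:**
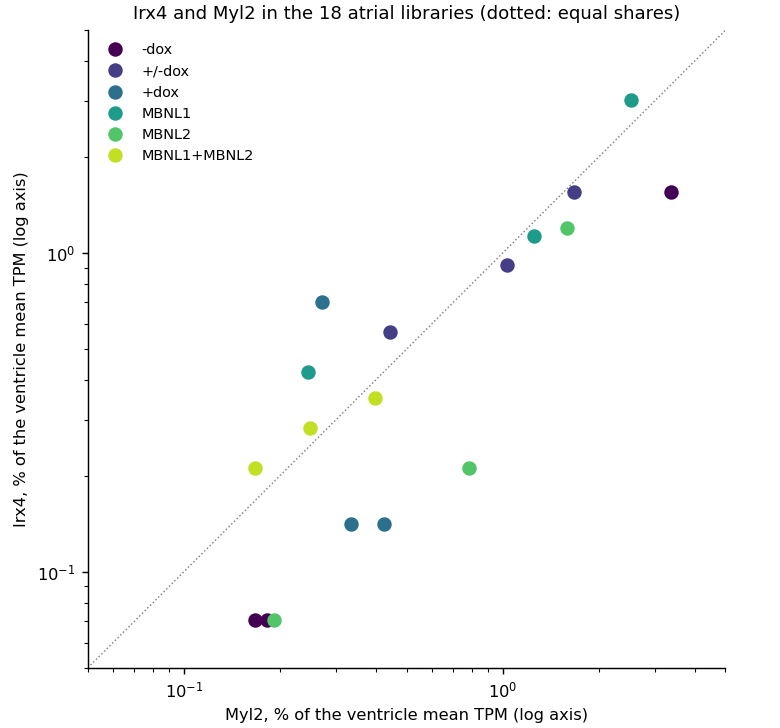
Irx4 (vertical) against Myl2 (horizontal) in the 18 atrial libraries, each as a percentage of its mean TPM in the 18 ventricular libraries, on log axes, with 1 point a library coloured by cohort and a dotted line of equal shares. The highest point for Irx4, an MBNL1 library, sits at 3.03% of Irx4 and 2.53% of Myl2, and the points rise together.

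Hey2, the other ventricular member, differed far less. It was 1.25, 1.79 and 2.41 TPM (lowest, median and highest) in ventricles and 1.02, 1.49 and 2.14 TPM in atria. The chambers overlapped on the TPM scale. On counts the log2 difference was 0.76 ± 0.077 (SE, edgeR adjusted p = 1.9e-10), a 1.70-fold difference, and single cohorts gave 0.57 to 0.95. It was called in 5 of the 6 cohorts and missed the 1.5-fold limit in +/-dox, at 0.57. The size depended on the scale: 0.49 with library totals in place of TMM, 0.16 on log2(TPM + 1) and 0.25 on log2(TPM + 0.1), none of them past the limit.

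All genes shifted with the scaling as well. The median gene differed by -0.03 between chambers with TMM, by -0.30 with library totals, by -0.29 on log2(TPM + 1) and by -0.45 on log2(TPM + 0.1). Relative to the median gene, Hey2 stood at 0.79, 0.79, 0.45 and 0.70 under those scalings.

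The nuclear receptors were atrial. Nr2f2 was 2.61, 3.91 and 5.26 TPM in ventricles and 27.3, 35.4 and 39.9 TPM in atria, with no overlap, and its log2 difference was -2.67 ± 0.050 (SE, edgeR adjusted p = 7.0e-29), 6.35-fold higher in atria. Nr2f1 was 0.57, 1.32 and 2.15 TPM in ventricles and 9.99, 15.2 and 20.8 TPM in atria, again with no overlap. Its log2 difference was -3.25 ± 0.068 (SE, edgeR adjusted p = 6.4e-28), 9.52-fold higher in atria. Nr2f2 exceeded Nr2f1 in TPM in every one of the 36 libraries.

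Tbx5, a T-box factor of the atria, the left ventricle and the conduction system, had the highest median of the 9 in atria and the highest level in 13 of 18 atrial libraries, Tbx20 being highest in the other 5. Tbx5 was 8.46, 10.7 and 12.4 TPM in ventricles and 87.2, 106 and 119 TPM in atria. The groups were far apart, with a log2 difference of -2.82 ± 0.040 (SE, edgeR adjusted p = 7.1e-32), 7.06-fold higher in atria. Tbx20, which is needed for growth and upkeep of working myocardium, was 19.9, 30.7 and 38.1 TPM in ventricles and 79.8, 94.0 and 115 TPM in atria. It did not overlap either, and its log2 difference was -1.15 ± 0.031 (SE, edgeR adjusted p = 7.3e-25), 2.21-fold higher in atria.

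The core factors stayed below the 1.5-fold limit on counts. Nkx2-5 was 20.8, 36.5 and 52.2 TPM in ventricles and 38.0, 60.2 and 83.1 TPM in atria, and Gata4 was 37.8, 48.6 and 59.0 TPM in ventricles and 54.7, 63.0 and 71.0 TPM in atria. Hand2 was 12.6, 14.0 and 19.1 TPM in ventricles and 13.2, 15.4 and 18.7 TPM in atria. All 3 overlapped between chambers in TPM, and none was called. On counts scaled to library size with TMM (CPM), Nkx2-5 and Gata4 overlapped as well. Hand2 did not, at 23.9 to 32.4 CPM in ventricles and 18.1 to 23.5 CPM in atria. The log2 differences were -0.26 ± 0.088 for Nkx2-5 (edgeR adjusted p = 0.011), 0.13 ± 0.032 for Gata4 (adjusted p = 0.00038) and 0.41 ± 0.042 for Hand2 (adjusted p = 3.2e-10), each ± SE and each below 1.5-fold. The sign of Gata4 and Hand2 turned with the scale. Gata4 was -0.14 with library totals and -0.37 on log2(TPM + 1), and Hand2 was 0.13 and -0.09. Relative to the median gene, Gata4 was 0.16 with TMM and -0.08 on log2(TPM + 1), and Hand2 was 0.43 and 0.20. Nkx2-5 was -0.74 on log2(TPM + 1) (limma adjusted p = 9.9e-08), past the 1.5-fold limit, and -0.45 relative to the median gene.

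**Figure D2:**
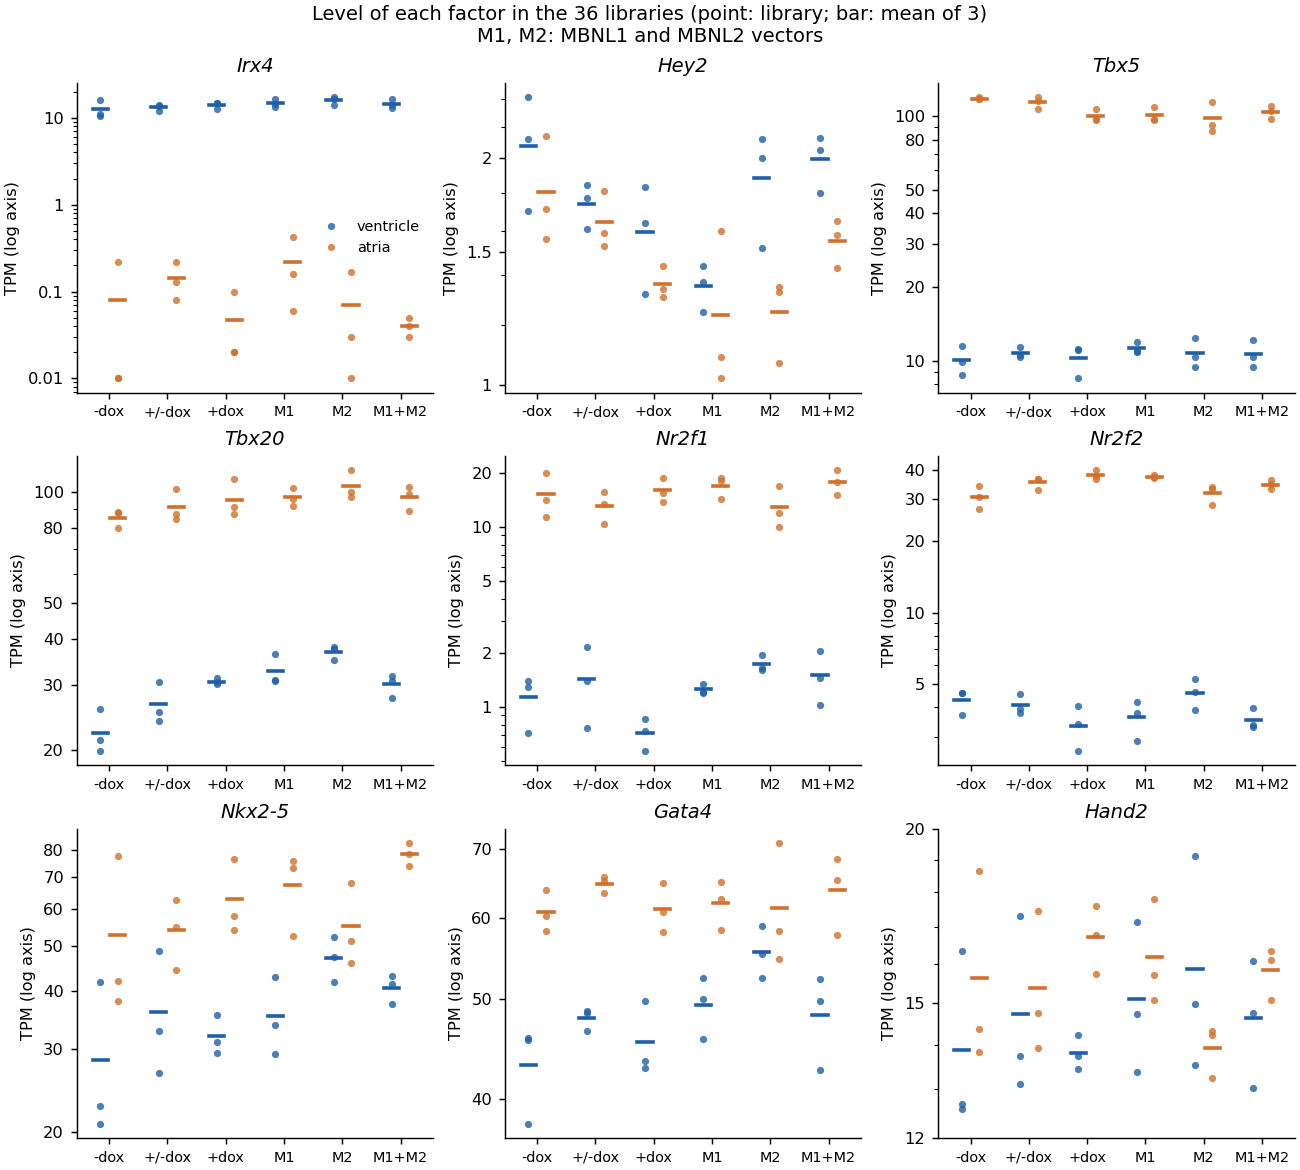
TPM of the 9 factors in the 36 libraries, on log axes with a scale for each gene, by cohort (M1 and M2 are MBNL1 and MBNL2), with points for libraries and bars for means of 3, ventricle in blue and atria in orange. Irx4, Tbx5, Tbx20, Nr2f1 and Nr2f2 form separate blue and orange bands, and Hey2, Nkx2-5, Gata4 and Hand2 overlap.

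The division held in each cohort. Between chambers 6 of 9 factors were called in -dox mice, against 24.9% of all genes. The count was again 6 in +dox (25% of all genes), MBNL1 (25.3%), MBNL2 (21.7%) and MBNL1+MBNL2 (24.1%). In +/-dox mice 5 of 9 were called, against 24.2% of all genes. Tbx5 ranged from -2.65 to -3.02 on the log2 scale over the cohorts, Nr2f2 from -2.32 to -2.92, Nr2f1 from -3.02 to -3.87 and Tbx20 from -0.95 to -1.37.

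**Figure D3:**
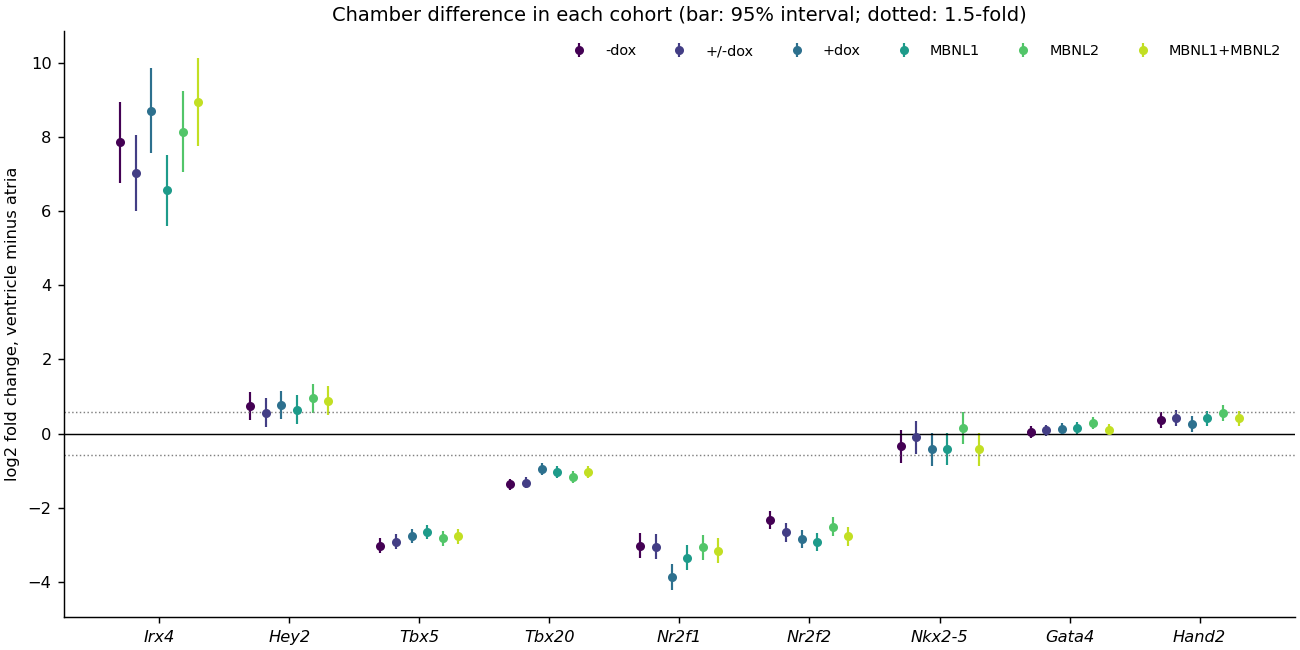
Log2 fold change of ventricle minus atria for each factor (horizontal axis) in each cohort (colour), from edgeR, with 95% intervals, a solid line at 0 and dotted lines at 1.5-fold. Irx4 lies between 6.56 and 8.94 in all cohorts, Tbx5, Nr2f1 and Nr2f2 lie below -2, and Nkx2-5, Gata4 and Hand2 lie inside the dotted lines in all 6.

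In the order of the 12 groups by mean TPM, the step between the lowest group of the one chamber and the highest of the other was the only gap in which neighbours did not overlap for Irx4, Tbx5, Tbx20 and Nr2f1. Nr2f2 had a further gap within atria, below +dox (38.0 ± 1.69 TPM, SD, n = 3) and MBNL1 (37.4 ± 0.65 TPM). It was narrow, with the lowest MBNL1 library at 36.77 TPM and the highest of +/-dox, the next group, at 36.61 TPM. In CPM these groups overlapped (57.4 to 63.7 in MBNL1 and 58.0 to 62.2 in +/-dox). Gata4 had its only gap inside the ventricle, where MBNL2 (55.6 ± 3.27 TPM) stood above MBNL1 (49.4 ± 3.37 TPM). That gap was narrow too, between 52.44 and 52.39 TPM, and the groups overlapped in CPM (119.8 to 130.9 in MBNL2 and 109.2 to 124.8 in MBNL1). Neighbouring groups of Hey2, Nkx2-5 and Hand2 all overlapped.

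Lists of related genes were counted in the same comparison, to be read against the 31.7% of all genes called. Among 17 family relatives, 13 were tested and 8 were called, 6 higher in the ventricle and 2 in the atria. Irx1 and Irx2, Iroquois genes like Irx4, were higher in the ventricle by 7.63 and 6.94 on the log2 scale. Of 17 cofactors and other cardiac factors 6 were called, 2 higher in the ventricle and 4 in the atria. They included Prdm16, a factor of compact myocardium, at 3.02. The median log2 difference was 0.41 over the relatives and -0.18 over the cofactors, against -0.03 over all genes.

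Of 8 ventricular contractile and membrane genes 5 were called, all higher in the ventricle, led by Myl3 at 7.68 and Myl2 at 7.62. All 12 atrial genes were called, 11 higher in the atria. Bmp10, a secreted growth factor, was at -8.28 and Sln, the atrial inhibitor of the SERCA pump, was at -6.63. Kcna5, a potassium channel gene named here after its value was seen, was the exception at 1.37. Of 12 cardiac targets 5 were called, 4 higher in the ventricle, led by Pln (2.42), the SERCA regulator, and Tnnc1 (1.72), cardiac troponin C. The shares called of the cofactors and of the targets were near that of all genes.

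Genes of the upstream pathways were counted against the same 31.7%. Of 11 Notch pathway genes 4 were called, a share near it, with the receptor genes Notch3 at 0.83 and Notch2 at -0.76. Of 11 retinoic acid genes, 10 were tested and 5 were called, 4 of them higher in the atria, among them the retinoic acid synthase Aldh1a2 at -2.03 and the retinol transporter Stra6 at -1.70.

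Markers of other cell types were set beside these differences, again against 31.7% of all genes called. The 4 endocardial markers summed to 22.8 to 40.6 TPM in ventricles and 184 to 291 TPM in atria, and 3 of 4 were called. The 6 epicardial and mesothelial markers summed to 0.78 to 4.24 TPM in ventricles and 17.5 to 117 TPM in atria, with 5 of 6 called. The 6 venous and lymphatic endothelial markers summed to 44.4 to 61.3 TPM in ventricles and 80.8 to 108 TPM in atria, with 2 of 6 called. Fibroblast markers summed to 564 to 1057 and 1058 to 1542 TPM, with 1 of 6 called, and macrophage markers to 76.1 to 150 and 174 to 339 TPM, with 4 of 6 called. The 6 cardiomyocyte markers summed to 20321 to 29050 TPM in ventricles and 22792 to 30457 TPM in atria. The counts of the venous and lymphatic list and of the fibroblast list were near or below the share of all genes. Their part in the atrial excess of Nr2f1, Nr2f2, Tbx5 and Tbx20 was not tested.

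The second question was how these factors differed between +dox and the other cohorts. The -dox and +/-dox mice differed from +dox mice in dox itself as well as in repeat RNA, and these cannot be told apart. None of the libraries came from mice given a control vector, so vector delivery and MBNL expression cannot be told apart either. Each cohort was compared with +dox, and the 5 comparisons of a tissue share the same 3 +dox libraries. In the ventricle, 1 of 9 factors, Nr2f1, was called in -dox, +/-dox, MBNL2 and MBNL1+MBNL2, against 7.6%, 6.6%, 1.52% and 2.65% of all genes. In MBNL1 no factor was called, against 2.66%. In the atria no factor was called in -dox, +/-dox, MBNL1, MBNL2 or MBNL1+MBNL2, against 5.23%, 3.99%, 0.13%, 0.0052% and 0.26% of all genes.

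Nr2f1 was lowest in +dox ventricles. In CPM, the counts scaled to library size with TMM, the 3 +dox libraries stood at 1.27, 1.41 and 1.61. The -dox libraries stood at 2.75, 2.05 and 2.48, and the +/-dox libraries at 1.93, 1.89 and 2.94. MBNL1 libraries stood at 1.72, 2.23 and 2.45 CPM, MBNL2 at 2.34, 2.18 and 2.12, and MBNL1+MBNL2 at 2.76, 2.24 and 1.81. All 15 other ventricular libraries, at 1.72 to 2.94 CPM, were above the 3 of +dox. How many of all genes split in this way was not counted. Against +dox the log2 changes were 0.76 ± 0.17 in -dox (SE, edgeR adjusted p = 0.0015), 0.66 ± 0.17 in +/-dox (adjusted p = 0.0054), 0.63 ± 0.17 in MBNL2 (adjusted p = 0.021) and 0.67 ± 0.17 in MBNL1+MBNL2 (adjusted p = 0.013). In MBNL1 the change was 0.58 ± 0.17 (adjusted p = 0.030), short of 1.5-fold. Between the MBNL cohorts and +/-dox, Nr2f1 was not called.

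The calls for Nr2f1 depended on the scale, on single libraries and on whether both tissues were fitted together. Each ventricular library held 100 to 181 counts of Nr2f1. In TPM the +dox libraries were at 0.57, 0.74 and 0.86 and the others at 0.72 to 2.15, with overlap, and TPM per CPM of this gene varied 2.36-fold between ventricular libraries, against 1.18- to 1.43-fold for the other members. On log2(TPM + 1) the -dox change was 0.30 (limma adjusted p = 0.38) the +/-dox change was 0.46 (adjusted p = 0.13) and that of MBNL1+MBNL2 was 0.52 (adjusted p = 0.15), none called, while the MBNL2 change was called at 0.67 (adjusted p = 0.043). On log2(TPM + 0.1) the changes in +/-dox (0.81, limma adjusted p = 0.043), MBNL2 (1.17, adjusted p = 0.011) and MBNL1+MBNL2 (0.93, adjusted p = 0.044) were called, and those in -dox (0.55, adjusted p = 0.19) and MBNL1 (0.73, adjusted p = 0.11) were not. Without +dox replicate 1 the +/-dox, MBNL2 and MBNL1+MBNL2 calls were lost, at 0.58, 0.55 and 0.58. The +/-dox call was lost without +/-dox replicate 3 (0.42, edgeR adjusted p = 0.10), and that of MBNL1+MBNL2 without its replicate 1 (0.50, adjusted p = 0.15). The MBNL2 call was lost without MBNL2 replicate 1 (0.59, adjusted p = 0.085) and without +dox replicate 2 (0.62, adjusted p = 0.051). The MBNL1 change was called without MBNL1 replicate 1, the library with few genes above 0 (0.71, adjusted p = 0.019), and without +dox replicate 3 (0.67, adjusted p = 0.038). The -dox call was kept without each library in turn, at 0.66 to 0.87. In a fit of the ventricle alone the -dox change was called, at 0.76 (edgeR adjusted p = 0.027). There the other calls were lost with changes of like size, 0.66 in +/-dox (adjusted p = 0.052), 0.64 in MBNL2 (adjusted p = 0.13) and 0.68 in MBNL1+MBNL2 (adjusted p = 0.098).

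Library names fall into 2 runs of numbers, with replicates 1 and 2 of 5 cohorts in the first and the remaining libraries in the second, including all of MBNL1+MBNL2. Within the first, the Nr2f1 change was 0.84 in -dox (adjusted p = 0.0022) and 0.77 in MBNL2 (adjusted p = 0.018), both called, and 0.52 in +/-dox (adjusted p = 0.045), not called. The second holds 1 library a cohort outside MBNL1+MBNL2, so it gives no test. With the set as a covariate the MBNL1+MBNL2 change was 0.53 (edgeR adjusted p = 0.029), short of 1.5-fold and not called. The sets also differed in sex. Xist, the RNA of the inactive X, was at 0.01 to 0.12 TPM in the 20 libraries of the first set and 13.6 to 41.2 TPM in the 10 of the second outside MBNL1+MBNL2, and at 0.08 to 0.15 TPM in the 6 of MBNL1+MBNL2. Ddx3y, a Y-linked gene, was at 24.5 to 34.8 TPM in the first set, at 0.08 to 0.21 TPM in the same 10 and at no more than 33.6 TPM, within the range of the first set, in MBNL1+MBNL2. The second-set libraries outside MBNL1+MBNL2 were thus from females and all others from males, which the study's sample list also gives. Name set and sex cannot be told apart within the 5 cohorts. Without +dox replicate 3, the female, the MBNL1+MBNL2 change was 0.75 (edgeR adjusted p = 0.016), still called. That leaves +dox wholly in the first set and MBNL1+MBNL2 wholly in the second, so cohort and set cannot be told apart there.

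Markers of other cells were set beside Nr2f1 in the ventricle. Their calls are to be read against 7.6% of all genes called in -dox, 6.6% in +/-dox and 1.52% in MBNL2. The 6 blood endothelial markers summed to 157 to 170 TPM in +dox, 196 to 250 in -dox, 205 to 225 in +/-dox, 182 to 205 in MBNL1, 199 to 219 in MBNL2 and 170 to 213 in MBNL1+MBNL2, and 1 of 6 was called in -dox. The venous and lymphatic list summed to 44.4 to 49.6 TPM in +dox and 46.3 to 60.7 in -dox, with 1 of 6 called. The 4 endocardial markers summed to 25.6 to 27.7 TPM in +dox and 23.8 to 26.4 in -dox, with 0 of 4 called. Single members differed in sign in -dox, where Npr3 was at -0.56 (edgeR adjusted p = 0.048, short of 1.5-fold), Vwf at 0.43 and Plvap at 0.30 on the log2 scale. In +/-dox the list summed to 22.8 to 25.9 TPM with 1 of 4 called (Npr3 at -0.88). In MBNL2 it summed to 27.5 to 40.6 TPM with 0 of 4 called, Vwf being at 0.72 and Plvap at 0.57 (edgeR adjusted p = 0.062 and 0.069). It summed to 26.1 to 33.1 TPM in MBNL1 and 26.0 to 35.0 TPM in MBNL1+MBNL2. Their part in the Nr2f1 change was not tested. Myl7, the atrial light chain, serves as a measure of atrial RNA in the ventricular samples, and its correlation with Nr2f1 TPM over the 18 ventricular libraries did not pass the test (Pearson r = -0.10, permutation p = 0.70, adjusted p = 0.87, Spearman's rho = -0.05, permutation p = 0.85, adjusted p = 0.92). Without the 2 libraries farthest from the median of Myl7 the correlation was -0.04, and it was -0.21 and 0.07 within the 10 and 8 libraries of the name sets. The Nr2f1 calls rest on counts and this correlation on TPM, so it cannot decide the part of atrial RNA in them. The relation of Myl7 to Nr2f1 CPM was not tested. For Tbx5, Tbx20 and Nr2f2 the correlations with Myl7 were -0.19, 0.003 and 0.14 (adjusted permutation p = 0.87, 1.0 and 0.87), with Spearman's rho of -0.08, -0.03 and 0.03 (adjusted permutation p = 0.92 for each).

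In the atria Nr2f1 was at 19.8 to 23.1 CPM in +dox and 15.9 to 23.0 CPM in the other 15 libraries. The groups overlapped, and the changes against +dox ran from -0.18 to 0.05.

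**Figure D4:**
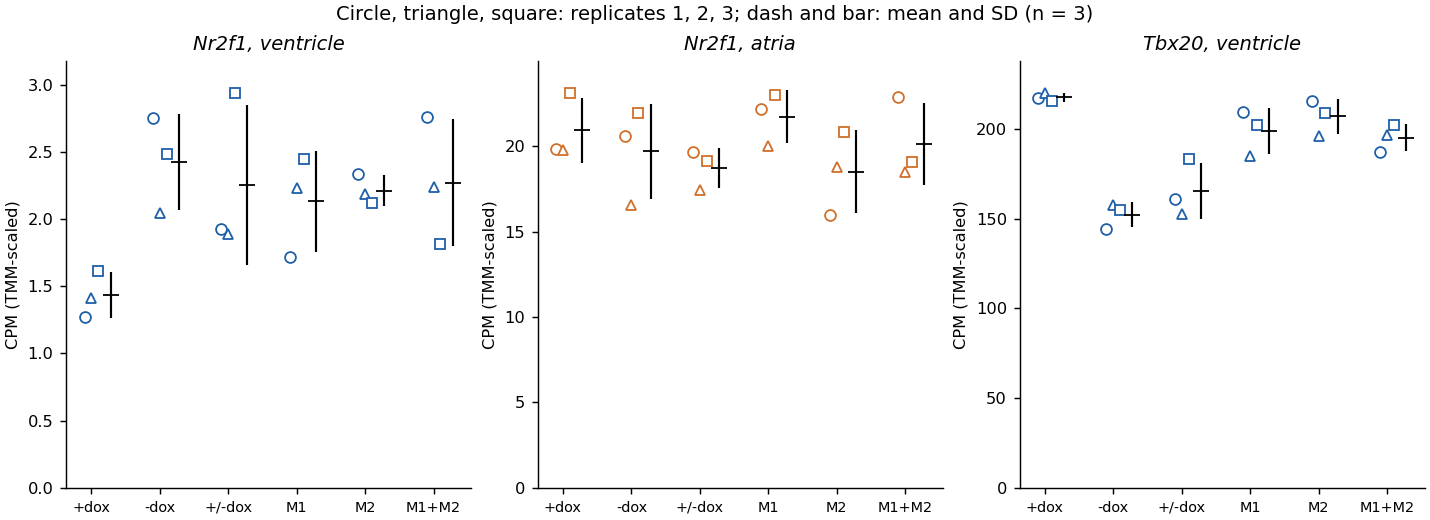
TMM-scaled CPM by cohort of Nr2f1 in ventricle (left), Nr2f1 in atria (middle) and Tbx20 in ventricle (right), on axes from 0, with circles, triangles and squares for replicates 1, 2 and 3 and dashes with bars for mean and SD (n = 3). For Nr2f1 in ventricle the +dox libraries (1.27 to 1.61) sit below the rest, in atria they sit among the rest, and for Tbx20 the -dox and +/-dox libraries (144 to 183) sit below +dox (215 to 220).

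Tbx20 went the other way. In +dox ventricles it stood at 217, 220 and 215 CPM, in -dox at 144, 158 and 155 and in +/-dox at 161, 153 and 183. In CPM the -dox and +/-dox libraries all lay below those of +dox. In TPM, -dox was at 19.9 to 25.9 and +/-dox at 24.0 to 30.6, the latter overlapping +dox at 30.2 to 31.4. MBNL2 stood above +dox in TPM, at 35.2 to 38.1. MBNL1 (30.7 to 36.5 TPM) and MBNL1+MBNL2 (27.8 to 31.8 TPM) overlapped +dox. MBNL1 libraries stood at 209, 185 and 202 CPM, MBNL2 at 216, 196 and 209, and MBNL1+MBNL2 at 187, 196 and 202. Against +dox the log2 change was -0.51 ± 0.076 in -dox (SE, edgeR adjusted p = 1.0e-05) and -0.39 ± 0.076 in +/-dox (adjusted p = 0.00036), both past the p threshold and short of 1.5-fold. The MBNL changes were -0.13 in MBNL1, -0.07 in MBNL2 and -0.16 in MBNL1+MBNL2. The -dox change was -0.45 on log2(TPM + 1) (limma adjusted p = 0.0018), and that of +/-dox was -0.21 (adjusted p = 0.17). Against +/-dox, MBNL2 was higher by 0.32 ± 0.076 (edgeR adjusted p = 0.010), and MBNL1 and MBNL1+MBNL2 stood at 0.26 and 0.24 (adjusted p = 0.055 and 0.11).

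**Figure D5:**
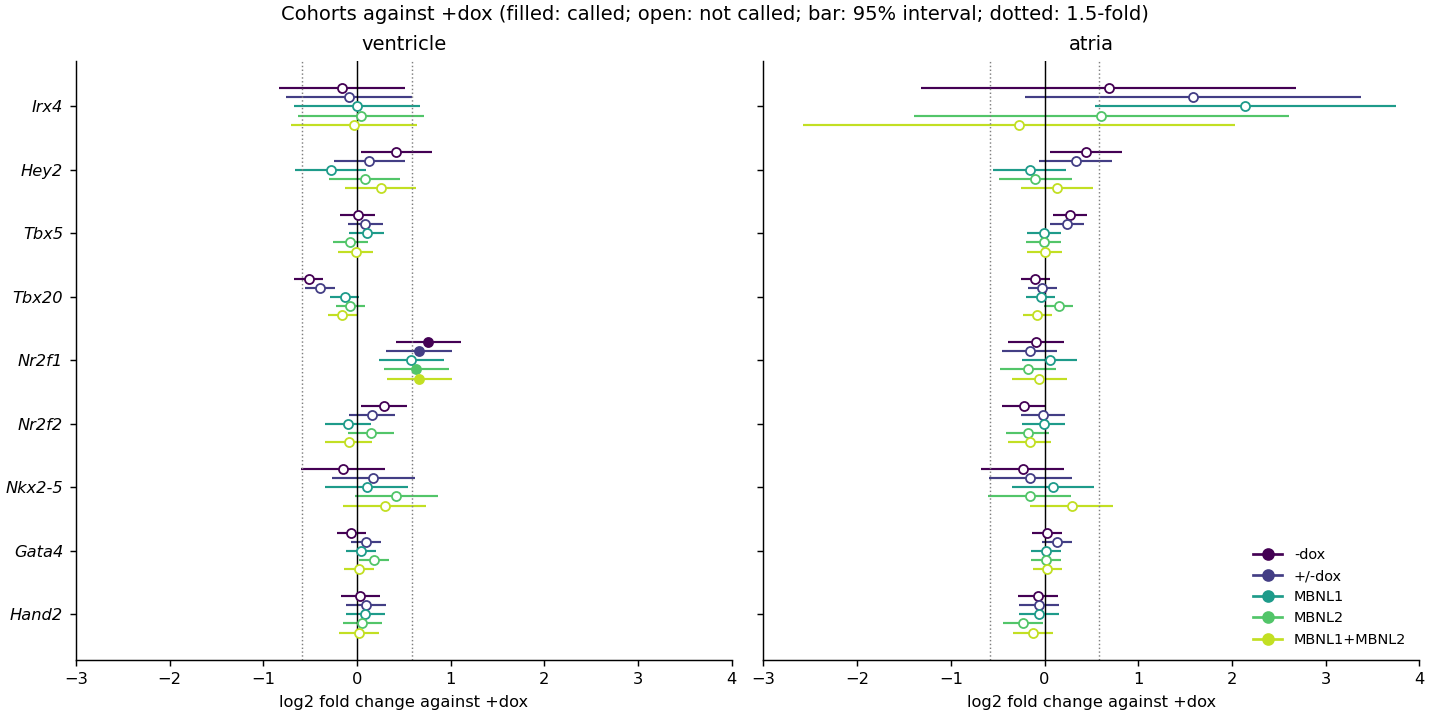
Log2 fold change of each cohort (colour) against +dox for the 9 factors, in ventricle (left) and atria (right), from edgeR, with 95% intervals, filled points where called and dotted lines at 1.5-fold. The 4 filled points all belong to Nr2f1 in ventricle (0.63 to 0.76), and Tbx20 in ventricle is at -0.51 in -dox and -0.39 in +/-dox.

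The other 7 factors were not called in any cohort. In the ventricle, Irx4 ran from -0.16 to 0.04 against +dox, Gata4 from -0.06 to 0.18 and Hand2 from 0.02 to 0.10. The 95% interval of Irx4 ran from -0.83 to 0.51 in -dox, which includes a 1.5-fold decrease. In atria Irx4 was at 2.14 in MBNL1 and 1.59 in +/-dox (edgeR adjusted p = 0.38 and 0.26) on the few counts given above. Hey2 was at 0.42 ± 0.19 in -dox ventricles and 0.44 ± 0.19 in -dox atria (SE, edgeR adjusted p = 0.11 in each), and Nr2f2 at 0.29 ± 0.12 in -dox ventricles (adjusted p = 0.082).

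Tbx5 in atria stood at 284, 288 and 256 CPM in -dox and at 236, 245 and 206 in +dox. Groups did not overlap, and the log2 change was 0.27 ± 0.090 (SE, edgeR adjusted p = 0.038), past the p threshold and short of 1.5-fold. In +/-dox atria it stood at 271, 269 and 270 CPM, with a change of 0.24 ± 0.090 (adjusted p = 0.082).

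Nkx2-5 differed widely between some replicates. In -dox ventricles it was 22.7, 20.8 and 41.8 TPM, and in -dox atria 42.0, 38.0 and 77.8 TPM, replicate 3 of each being the high one. MBNL1+MBNL2 atria stood at 83.1, 78.6 and 74.0 TPM. Replicate 3 of -dox is in the second name set and female, and MBNL1+MBNL2 lies wholly in that set. Animal, name set and sex cannot be told apart in the former, and the part of the name set in either was not tested. Its log2 changes against +dox ran from -0.15 to 0.42 in the ventricle and from -0.23 to 0.29 in the atria, none past the p threshold.

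Lists of related genes were counted in the ventricle against 7.6% of all genes called in -dox and 6.6% in +/-dox. In -dox against +dox they had 2 of 13 tested family relatives called (Hey1 at 0.67 and Tbx18 at 0.65), 0 of 17 cofactors, 0 of 10 retinoic acid genes and 3 of 11 Notch pathway genes. The Notch receptors were Notch4 at 0.74, Notch1 at 0.66 and Notch3 at 0.65, the last named after its value was seen. Of the cardiac targets 3 of 12 were called, among them the calcium release channel gene Ryr2 at 0.96. Of the ventricular list 1 of 8 was called, Kcnip2, a potassium channel subunit, at 1.16, and of the atrial list 1 of 12, Kcna5 at 0.66. In +/-dox against +dox the counts were 2, 0, 0 and 2 for relatives, cofactors, retinoic acid and Notch, with Tbx1 at 1.14, Tbx2 at 0.73, Notch3 at 0.65 and Notch4 at 0.64. The targets gave 4 of 12, led by Ryr2 at 1.05. Each list is small, and 1 gene called of 12 was near the share of all genes.

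In the atria, in -dox against +dox, where 5.23% of all genes were called, 2 of 13 tested relatives were called (Tbx3 at 0.70 and Tbx18 at 0.64), with 0 of 17 cofactors, 0 of 11 Notch genes and 0 of 10 retinoic acid genes. Gja5, the atrial connexin 40 gene and the only 1 of 12 atrial genes called, was at 2.31. Fhl2, a LIM domain protein gene, was the only 1 of 8 ventricular genes, at -0.97. The targets gave 4 of 12, led by Nppb, a natriuretic peptide gene, at 1.26 and Pln at 0.93.

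Mice taken off dox and mice never given it were compared directly. No factor was called between -dox and +/-dox, in the ventricle against 0.0312% of all genes or in the atria against 0.0104%. Between the MBNL cohorts and +/-dox no factor was called either. The share of all genes was 0.868% in MBNL1, 1.57% in MBNL2 and 0.53% in MBNL1+MBNL2 ventricles, and 1.21%, 3.24% and 1.71% in atria.

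The last comparison asked whether the chamber difference itself depended on the cohort. Ventricle minus atria in each cohort, less the same in +dox, gave no called factor in the fit without the replicate block, against 0.764% of all genes for -dox, 0.489% for +/-dox, 0.0312% for MBNL1, 0.0364% for MBNL2 and 0.0728% for MBNL1+MBNL2. Nr2f1 was nearest to a call. Its chamber difference was -3.87 in +dox and -3.02 in -dox, a log2 change of 0.85 ± 0.22 (SE, edgeR adjusted p = 0.056), and for +/-dox the change was 0.82 ± 0.23 (adjusted p = 0.084). With the replicate block, which pairs the ventricle and atria of equal number, Nr2f1 was called in -dox (0.85, edgeR adjusted p = 0.012), +/-dox (0.80, adjusted p = 0.021) and MBNL2 (0.82, adjusted p = 0.040), and not in MBNL1 (0.51, adjusted p = 0.28) or MBNL1+MBNL2 (0.71, adjusted p = 0.10). Under it all genes called rose from 147 to 299 in -dox, from 94 to 230 in +/-dox, from 6 to 21 in MBNL1, from 7 to 81 in MBNL2 and from 14 to 59 in MBNL1+MBNL2. The -dox change was called in 5 of the alternative fits, the block included, for example with DESeq2 (0.87, adjusted p = 0.010), and the +/-dox change in 3. Tbx20 in -dox changed by -0.42 ± 0.11 (adjusted p = 0.050, just under the threshold and short of 1.5-fold).

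Across the 36 libraries, with the mean of each tissue removed from log2(TPM + 1), the members were related to each other as a description only, since libraries of a cohort share treatment and name set. The highest Pearson correlations were 0.78 between Nr2f1 and Nkx2-5, 0.73 between Nkx2-5 and Hand2 and 0.67 between Tbx20 and Gata4. Among genes of at least 5 TPM, those most like Nkx2-5 were Akt1s1 (0.94), Tpgs1 (0.93) and H2aj (0.93), and those most like Tbx20 were Extl3 (0.87), Zfp385a (0.85) and Ctnnb1 (0.85). Nr2f1 was most like Tbcc (0.84), Tsen34 (0.84) and Chchd10 (0.82), and Nr2f2 most like Mcc (0.82). The first genes of the others were Epn3 for Irx4 (0.73), Adgrl4 for Hey2 (0.64), 0610030E20Rik for Tbx5 (0.71), Ptpn23 for Gata4 (0.80) and Dusp28 for Hand2 (0.76).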

How the data were processed

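RNA of the left ventricle and atria was sequenced as stranded mRNA libraries from 250 ng of RNA, 3 per cohort and tissue, as paired reads of 150 cycles. Per the submitters' processing notes, reads were aligned to mm10 with STAR 2.7.10b and quantified with RSEM 1.3.1. The authors used GENCODE M25 genes and deposited expected counts, which RSEM estimates for each symbol and which are not normalized. A second deposited table holds TPM from the same runs, scaled by transcript length.

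Expected counts were rounded and tested across all 19231 genes that passed filterByExpr with the quasi-likelihood test of edgeR 4.0.16 (R 4.3.3), with TMM, robust dispersions and 1 mean for each of 12 groups of all 36 libraries. Genes were called at a Benjamini-Hochberg adjusted p below 0.05 within a comparison and at least 1.5-fold, the study's thresholds. DESeq2 1.42.0, the study's tool, and limma 3.58.1 on log2(TPM + 1) or log2(TPM + 0.1) were alternatives. The edgeR fit was also run on simulated counts without a chamber difference, changed in -dox ventricles only, and the outcome is not given here. Correlations used 100000 permutations, 2-sided.

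Members, pathway lists and marker lists were chosen with earlier results of these data known. Named by rule were the members, the 2 called genes with the largest change per pathway list in a comparison described, and the 3 genes most like a member. Some genes that this rule picks are not reported here. Annotation came from GENCODE M21, start-site regions from RefSeq (GRCm38.p6). The study calls its replicates biological, and its sample list gives ventricle and atria from the same 18 mice in the same order, while the labels carry replicate numbers and no animal. Ventricle and atria of the same number deviated together at r of 0.041 to 0.257, above 0.1 in 11 of 18 pairs, and 17 of 18 correlated best with their own number. The main fit has no replicate block, as the study's methods state none, and the block was an alternative. Reads and splicing were not analysed here.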

Additional observations from a re-analysis of the deposited data

How the results depend on the processing

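With 1 library left out, 229 counts of called members stayed within 1.5 times of the reported count and 11 did not. Under other settings 285 counts stayed and 29 did not. These also take in the count of members without overlap between chambers and that of the genes most like a member. In the ventricle, -dox against +dox gave 2 members on adjusted p alone and with library totals (chosen after seeing the data), and 0 with limma on either TPM scale. For +/-dox the count was 2 on adjusted p alone and 0 within the first name set, in a fit of the ventricle alone and with limma on log2(TPM + 1). MBNL1 gave 1 on adjusted p alone, with relative log expression size factors and with DESeq2. Over all genes, DESeq2 called 693 in MBNL1, against 511 in the main fit. MBNL2 gave 0 in the fit of 1 tissue, and MBNL1+MBNL2 gave 0 there, with the name set as a covariate and with limma on log2(TPM + 1). The fit of the ventricle alone called fewer of all genes. It called 1025 in +/-dox, 159 in MBNL2 and 298 in MBNL1+MBNL2, against 1270, 292 and 509 in the main fit. Leaving out single libraries gave 0 to 1 for +/-dox, MBNL1, MBNL2 and MBNL1+MBNL2. On adjusted p alone, 1 member was counted in -dox atria against +dox (Tbx5) and 1 in MBNL2 ventricles against +/-dox (Tbx20). The cause was not tested.

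The change of the chamber difference in -dox gave 1 member on adjusted p alone (Tbx20) and 1 (Nr2f1) with relative log expression, the name set as a covariate, the first name set alone and DESeq2, and 0 to 1 without single libraries. That of +/-dox gave 1 with the covariate and DESeq2, and that of MBNL2 gave 1 with DESeq2. DESeq2 also called more of all genes here, 273 in -dox, 200 in +/-dox and 64 in MBNL2, against 147, 94 and 7 in the main fit. Gata4 between chambers reversed to -0.14 with library totals and to -0.37 on both TPM scales, and Hand2 to -0.088 on log2(TPM + 1) and -0.093 on log2(TPM + 0.1). Of the 27 genes most like a member, 11 were also among the first 3 by Spearman's rho.

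With the replicate block the change of the chamber difference gave 1 member (Nr2f1) in each of -dox, +/-dox and MBNL2, at 0.85 (edgeR adjusted p = 0.012) in -dox and 0.80 (adjusted p = 0.021) in +/-dox, and the block changed no other count of called members. Nr2f1 in ventricle rests on 100 to 181 counts a library, which limits its precision.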
